A study of Mus musculus with 24 samples.

Results

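The genes described here set or carry the signal of mTORC1, the protein kinase complex that rapamycin inhibits. They were the 10 rows of the count and FPKM tables named Sesn1, Sesn2, Sesn3, Ddit4, Deptor, Eif4ebp1, Eif4ebp2, Rps6kb1, Rheb and Fkbp1a, out of 55421 genes listed, and all 10 were among the 13847 genes with enough counts to be tested. The livers of 24 C57BL/6J mice were perfused to isolate hepatocytes, and RNA was taken from these. The animals were males per the methods. Every animal was given vehicle or drug from 4 months of age, and the diets diverged at 18 months for the last 9 weeks. The ND+veh group (n = 8) stayed on normal diet with vehicle, the HFD+veh group (n = 7) changed to a high-fat diet with 60% of its calories from fat and kept vehicle, and the HFD+eRapa group (n = 9) changed to the same high-fat diet with encapsulated rapamycin (eRapa) at 42 ppm. No group on normal diet with rapamycin was analysed here, so a rapamycin difference could be measured on high-fat diet only.

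mTORC1 promotes protein synthesis and growth when amino acids, insulin and energy are sufficient, and in hepatocytes it follows feeding and fasting. Sestrins (Sesn1, Sesn2, Sesn3), REDD1 (encoded by Ddit4) and DEPTOR restrain it, the GTPase Rheb switches it on, and its best known outputs are the translation repressors 4E-BP1 and 4E-BP2 (Eif4ebp1, Eif4ebp2) and the kinase S6K1 (Rps6kb1). Fkbp1a encodes FKBP12, the protein that rapamycin must bind before it can block mTORC1. The measurements below are RNA levels, whereas mTORC1 activity is read from phosphorylated proteins, which were not measured in these libraries.

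Of the 10 members, Ddit4 separated the rapamycin-fed animals most clearly. Levels are in CPM, a gene's counts per 1000000 counts of the library after TMM scaling. Its RNA level was 3.69 ± 1.32 CPM (mean ± SD, n = 9) in HFD+eRapa, against 11.8 ± 3.63 CPM in HFD+veh (n = 7) and 13.9 ± 10.6 CPM in ND+veh (n = 8). Sesn1 and Eif4ebp2 differed between HFD+veh and each of the other groups in opposite directions, with Sesn1 higher and Eif4ebp2 lower in HFD+veh. Rps6kb1, Rheb and Fkbp1a passed the test in none of the 3 comparisons. In the test used throughout, edgeR's quasi-likelihood test with Benjamini-Hochberg adjustment over all 13847 genes, a gene with an adjusted p under 0.05 is termed called.

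**Figure D1:**
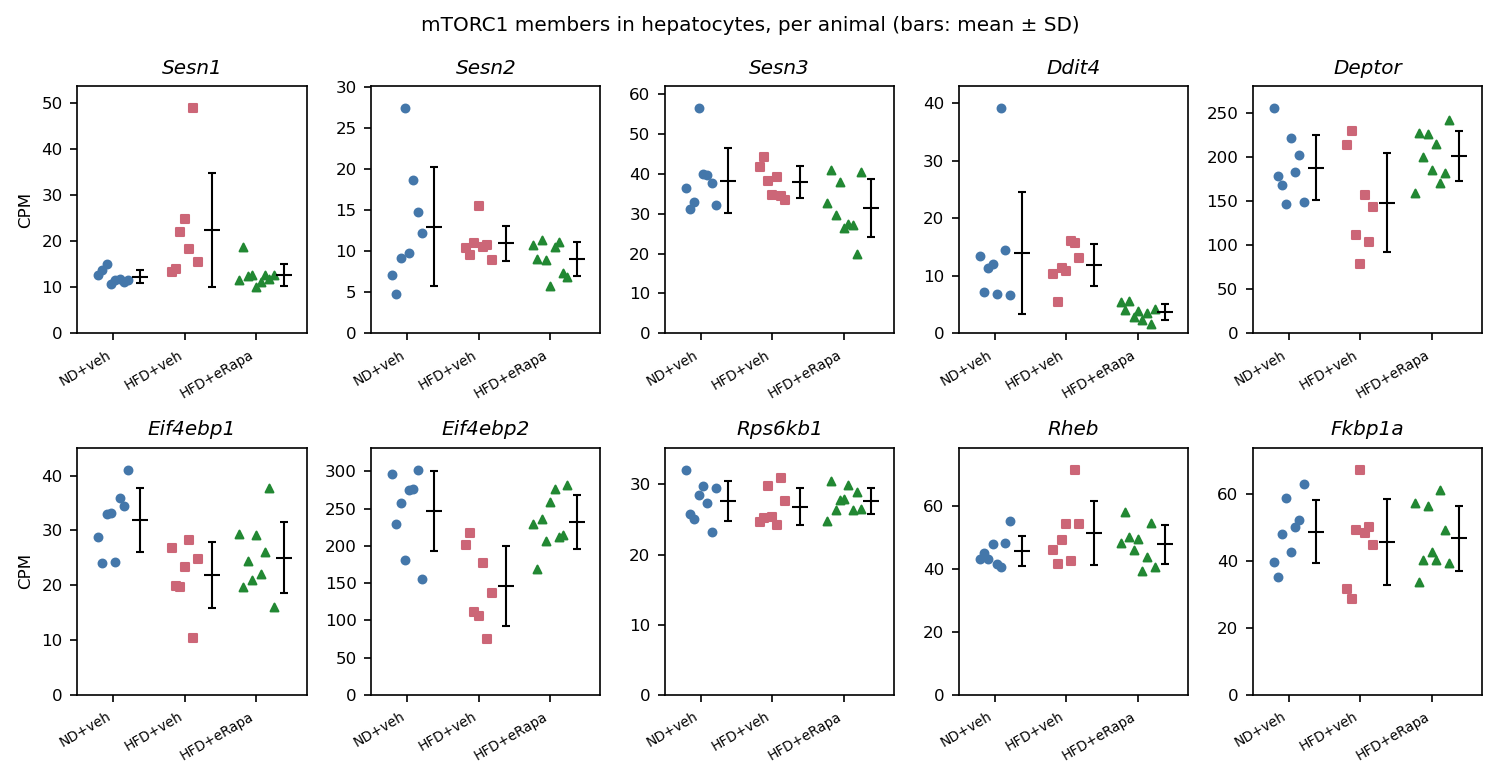
Level of each member in CPM (vertical axes, linear from 0) in every animal of ND+veh (blue circles), HFD+veh (red squares) and HFD+eRapa (green triangles), with the mean ± SD of each group in black. The 9 HFD+eRapa animals lie between 1.61 and 5.60 CPM for Ddit4, below all 8 ND+veh animals, and a single HFD+veh animal stands at 48.9 CPM for Sesn1.

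The hepatocyte label was checked against marker genes, because perfused preparations can hold other liver cells. The 11 hepatocyte markers summed to between 62260 and 180800 CPM in the libraries, and Alb alone stood at 31430 CPM or more. In HFD+veh against ND+veh Cyp2e1 (log2 fold change -1.93) and Apoa1 (-0.68) were called lower and Hpx (1.03) higher. The other 8 were not called, where 25.9% of all genes were called. Markers of other cells were present and moved with the groups. The 11 macrophage markers summed to 45.6 to 1278 CPM in ND+veh (median 262), 177 to 4713 CPM in HFD+veh (median 2538) and 14.6 to 1044 CPM in HFD+eRapa (median 199), with no marker at 0 in any library. Endothelial markers had group medians of 241, 470 and 145 CPM in the same order, stellate markers 126, 160 and 46.4 CPM, and cholangiocyte markers 5.74, 106 and 20.8 CPM. Within the cholangiocyte sum Spp1 had medians of 2.79, 95.3 and 13.2 CPM, and Sox9 of 3.04, 8.87 and 6.13 CPM. Medians of Epcam, Krt19, Krt7 and Cftr were at most 0.422 CPM. Lymphocyte and neutrophil markers had medians of at most 24.1 CPM. In these bulk samples fewer cells of a type and less RNA per cell cannot be told apart, and the part of other cells in any result below was not tested beyond the fits that carry marker scores as covariates. A list of immediate early and heat shock genes that respond to tissue dissociation had median sums of 1012, 634 and 641 CPM. Libraries held 17740000 to 25950000 counts, and the lowest of 3 exact permutation p-values for depth between groups was 0.0828 (two-sided).

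The start regions of the 3 members called between HFD+eRapa and HFD+veh are printed here, so that the motifs described next can be seen in place. RefSeq start sites on GRCm38.p6 were matched for 8 of the 10 members, with 9 starts in all. Each line gives the bases before the start, 5′ to 3′ on the gene's own strand, and positions are counted back from the RefSeq start. For Ddit4 the bases nearest that start lie in a Gencode M21 exon and are not printed. Capitals mark CCAAT or ACGTG on either strand (ATTGG and CACGT on the opposite strand). The Sesn1 stretch is chr10:41887189-41887438 on the plus strand, before the downstream of its listed starts. The window of the other start is not printed, since its base farthest from that start lies in an annotated exon. The Ddit4 stretch is chr10:59951835-59952020 and the Eif4ebp2 stretch chr10:61452670-61452919, both on the minus strand.
Sesn1: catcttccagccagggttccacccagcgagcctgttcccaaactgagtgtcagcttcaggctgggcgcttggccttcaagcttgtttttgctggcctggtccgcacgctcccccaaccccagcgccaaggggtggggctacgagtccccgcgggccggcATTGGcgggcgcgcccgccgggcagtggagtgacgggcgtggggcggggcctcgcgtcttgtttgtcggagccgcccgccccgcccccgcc
Ddit4: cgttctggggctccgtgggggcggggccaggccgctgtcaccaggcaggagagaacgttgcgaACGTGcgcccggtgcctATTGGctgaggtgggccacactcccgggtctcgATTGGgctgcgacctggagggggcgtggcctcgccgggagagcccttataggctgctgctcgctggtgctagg
Eif4ebp2: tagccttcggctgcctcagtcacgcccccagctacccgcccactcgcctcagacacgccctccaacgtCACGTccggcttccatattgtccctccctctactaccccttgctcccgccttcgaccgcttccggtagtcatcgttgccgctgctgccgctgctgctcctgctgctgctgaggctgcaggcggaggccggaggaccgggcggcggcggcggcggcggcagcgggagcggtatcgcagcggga

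In all, 6 motifs were searched on both strands in the 250 bases before every start. ACGTG, the core of the hypoxia response element, was found at positions -187 to -183 before Ddit4 and at -182 to -178, on the opposite strand, before Eif4ebp2, and 16.6% of all 32851 promoters held it. CCAAT occurred 2 times before Ddit4, at -170 to -166 and -137 to -133, and at -91 to -87 before the Sesn1 start shown, in each case on the opposite strand, and 33.8% of promoters held it. The shorter ACGTG is contained in the E-box CACGTG (6.02% of promoters), which none of the 3 stretches held and which lay at -96 to -91 before Rheb. None of the 3 held TGATGNAAN, a composite element bound by ATF4 with C/EBP partners (3.44% of promoters), the FoxO motif TGTTTAC (3.17%) or a spaced pair of p53 core sequences (0.49%). These matches are letters within short windows and were not measured as binding.

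Among the restraints, Ddit4 lies on chromosome 10 (GRCm38, 59949669-59951834, minus strand, 3 exons in the merged Gencode M21 model) and encodes REDD1, a stress-induced inhibitor that acts on mTORC1 through the TSC complex. It had 26 to 125 counts in the HFD+eRapa libraries. The HFD+eRapa animals spanned 1.61 to 5.60 CPM with a median of 3.79, HFD+veh animals 5.51 to 16.1 CPM with a median of 11.3, and ND+veh animals 6.73 to 39.1 CPM with a median of 11.8. The HFD+eRapa values lay below every ND+veh value, and 8 of 9 lay below every HFD+veh value, the exception being HFD+eRapa replicate 3 at 5.60 CPM beside HFD+veh replicate 2 at 5.51 CPM. Ddit4 fell by 1.68 on the log2 scale in HFD+eRapa against HFD+veh (SE 0.327, edgeR adjusted p = 0.000915) and by 1.91 against ND+veh (SE 0.321, edgeR adjusted p = 0.000236). Between HFD+veh and ND+veh its log2 fold change was -0.23 (95% interval -0.92 to 0.45, edgeR adjusted p = 0.631).

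An immune score was the mean standardised log2 CPM of macrophage, lymphocyte and neutrophil markers in a library. It used the 17 markers with enough counts to be tested, 11 of macrophages, 2 of lymphocytes and 4 of neutrophils, so macrophage genes weighed most. With it as a covariate the Ddit4 difference from HFD+veh was -1.15 (edgeR adjusted p = 0.0379), and with a score of endothelial, stellate and cholangiocyte markers it was -1.23 and no longer called (edgeR adjusted p = 0.0502). The difference from ND+veh was called under all 38 alternatives tried, between -2.01 and -1.45. Its ND+veh mean leaned on replicate 6 at 39.1 CPM, and without that library the log2 fold change against ND+veh was -1.48 (edgeR adjusted p = 0.000329).

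Sesn1 (chromosome 10, 41809935-41908424, plus strand, 11 merged exons) encodes a sestrin, a family that binds the GATOR2 complex and holds mTORC1 off the lysosome when leucine is scarce. ND+veh animals had 10.6 to 15.0 CPM with a median of 11.8, HFD+veh animals 13.3 to 48.9 CPM with a median of 18.3, and HFD+eRapa animals 10.1 to 18.7 CPM with a median of 12.4. In 5 of 7 HFD+veh animals Sesn1 was above every ND+veh animal, and in 8 of 9 HFD+eRapa animals it was below every HFD+veh animal, so the groups overlapped at their edges. Sesn1 rose by 0.87 on the log2 scale in HFD+veh against ND+veh (SE 0.207, edgeR adjusted p = 0.00553) and fell by 0.83 in HFD+eRapa against HFD+veh (SE 0.200, edgeR adjusted p = 0.00395). Against ND+veh the HFD+eRapa value was 0.04 (95% interval -0.36 to 0.44, edgeR adjusted p = 0.938), with a sign that turned on the FPKM scale.

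HFD+veh replicate 6 carried much of the size of both Sesn1 differences. Without it the log2 fold changes were 0.51 (edgeR adjusted p = 0.0192) and -0.48 (edgeR adjusted p = 0.0166). That animal also had the highest macrophage marker sum, 4713 CPM, and the lowest dissociation stress sum, 293 CPM. With the immune score as a covariate the values were 0.51 (edgeR adjusted p = 0.158) and -0.46 (edgeR adjusted p = 0.23), neither called.

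The other sestrins were not called in any comparison. Sesn2 (chromosome 4, 132492032-132510501, minus strand), the leucine-sensing sestrin, ranged from 4.84 to 27.4 CPM in ND+veh, 8.99 to 15.5 CPM in HFD+veh and 5.79 to 11.4 CPM in HFD+eRapa. Its spread was widest in ND+veh, where the SD was 55.9% of the mean, and HFD+eRapa against ND+veh gave -0.52 (95% interval -1.02 to -0.02, unadjusted p = 0.0411, edgeR adjusted p = 0.169). Sesn3 (chromosome 9, 14275067-14333101, plus strand), a sestrin known as a FoxO target, had medians of 37.1, 38.3 and 29.8 CPM in ND+veh, HFD+veh and HFD+eRapa. In HFD+eRapa 6 of 9 animals lay below every HFD+veh animal, and the log2 fold change was -0.27 (95% interval -0.56 to 0.01, edgeR adjusted p = 0.131).

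Deptor (chromosome 15, 55112317-55259271, plus strand) encodes a subunit that inhibits both mTOR complexes from within, and it was abundant, at 78.9 CPM or more in every library. ND+veh animals had 146 to 255 CPM with a median of 181, HFD+veh animals 78.9 to 229 CPM with a median of 144, and HFD+eRapa animals 159 to 241 CPM with a median of 200. All 9 HFD+eRapa animals stood above the HFD+veh median, yet the ranges overlapped because HFD+veh replicates 1 and 2 reached 213 and 229 CPM. The difference was 0.44 (SE 0.178) with an edgeR adjusted p of 0.0621, and HFD+veh against ND+veh gave -0.34 (SE 0.182, edgeR adjusted p = 0.162). Deptor was called against HFD+veh when HFD+veh replicate 1 or replicate 2 was left out, and in HFD+veh against ND+veh when HFD+veh replicate 2 was left out. Against HFD+veh, limma voom gave 0.51 (adjusted p = 0.04), whereas the immune score as a covariate in edgeR gave 0.19 (adjusted p = 0.536) and the endothelial, stellate and cholangiocyte score 0.09 (adjusted p = 0.806). Pearson's r of Deptor with the latter score was -0.78 over 24 libraries and -0.71 after group means were removed. An antisense transcript, Gm9920, shares 303 exon bases with Deptor, 3.41% of its exon length, and whether counting used strand is not stated.

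**Figure D2:**
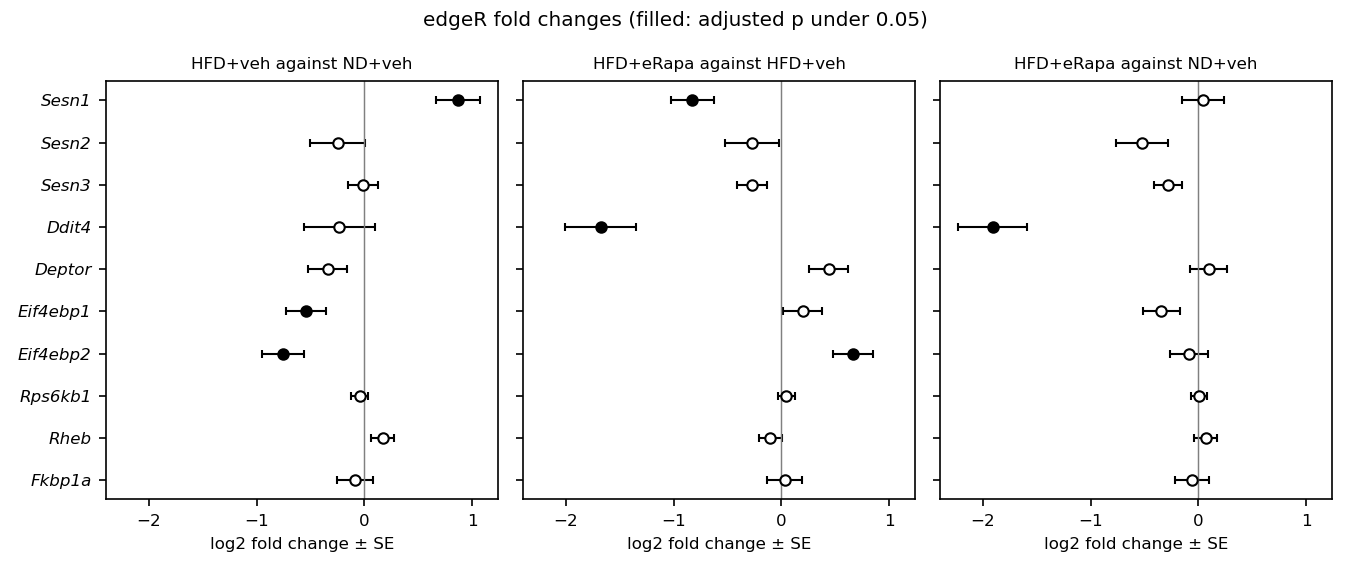
Log2 fold changes from edgeR (points, ± SE) of the 10 members in the 3 comparisons, the group named ahead of "against" relative to the other, filled where the adjusted p was under 0.05. Sesn1 lies at 0.87 and -0.83 in the comparisons that involve HFD+veh, Eif4ebp2 at -0.76 and 0.67, and Ddit4 at -1.68 and -1.91 in those that involve HFD+eRapa.

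Of the outputs, Eif4ebp2 (chromosome 10, 61428491-61452661, minus strand, 3 merged exons) encodes 4E-BP2, which binds the cap-binding factor eIF4E until mTORC1 phosphorylates it. ND+veh animals had 155 to 302 CPM with a median of 266, HFD+veh animals 75.0 to 217 CPM with a median of 136, and HFD+eRapa animals 169 to 282 CPM with a median of 229. Every HFD+veh animal was below the ND+veh median and 4 of 7 were below every ND+veh animal, while 5 of 9 HFD+eRapa animals were above every HFD+veh animal. Eif4ebp2 fell by 0.76 on the log2 scale in HFD+veh against ND+veh (SE 0.192, edgeR adjusted p = 0.00802) and rose by 0.67 in HFD+eRapa against HFD+veh (SE 0.187, edgeR adjusted p = 0.00942). HFD+eRapa against ND+veh gave -0.09 (95% interval -0.46 to 0.28, edgeR adjusted p = 0.813).

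The Eif4ebp2 level ran opposite to the immune markers across libraries. Pearson's r of its log2 CPM with the immune score was -0.80 over 24 libraries and -0.70 after group means were removed, and these points share depth and composition within each library. With that score as a covariate the log2 fold changes were -0.46 (edgeR adjusted p = 0.0798) and 0.32 (edgeR adjusted p = 0.26). Over 38 alternatives HFD+eRapa against HFD+veh ranged from 0.26 to 0.79 for Eif4ebp2 and from -0.92 to -0.41 for Sesn1. For Sesn1 the correlations with the immune score were 0.68 and 0.49, and for Ddit4 they were 0.48 and 0.44. With the endothelial, stellate and cholangiocyte score r was -0.75 and -0.72 for Eif4ebp2, 0.63 and 0.50 for Sesn1, and 0.57 and 0.34 for Ddit4.

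**Figure D3:**
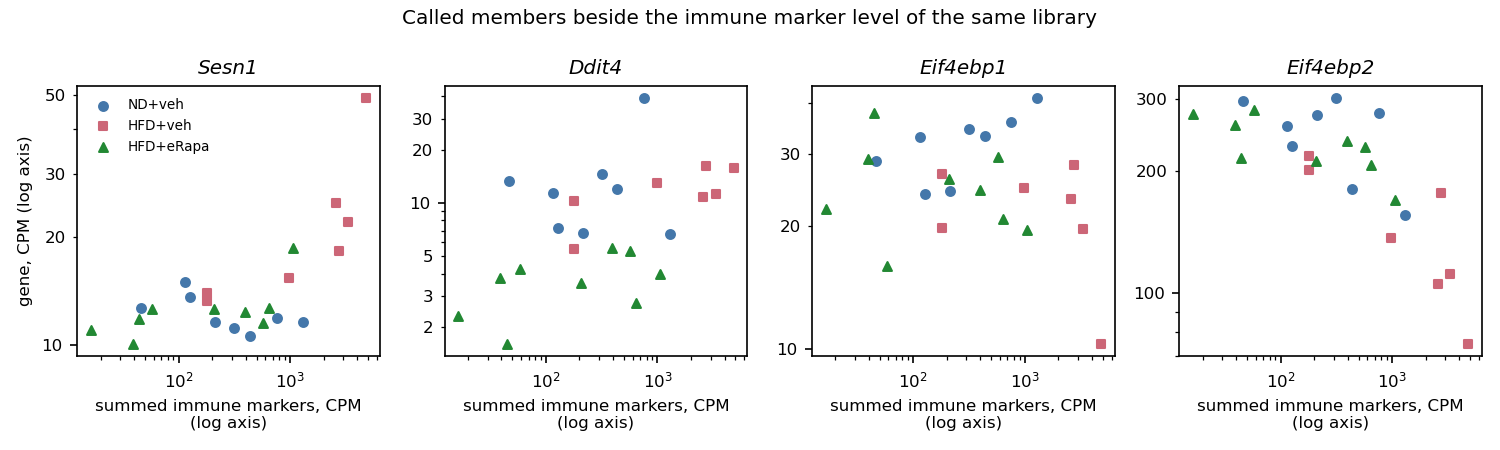
CPM of the 4 called members (vertical, log axis) against the summed CPM of macrophage, lymphocyte and neutrophil markers in the same library (horizontal, log axis), 1 point per animal, coloured and shaped by group. Sesn1 is highest and Eif4ebp2 lowest in HFD+veh replicates 3, 4 and 6, at marker sums from 2585 to 4811 CPM. HFD+veh replicate 5, at a sum of 2742 CPM, has 18.3 CPM of Sesn1 and 177 CPM of Eif4ebp2, within the range of other animals. The HFD+eRapa animals lie low for Ddit4 across marker sums from 16.4 to 1054 CPM.

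Eif4ebp1 (chromosome 8, 27260329-27276674, plus strand) encodes 4E-BP1, the related repressor, and is known as a target of ATF4. ND+veh animals had 23.99 to 41.0 CPM with a median of 33.1, HFD+veh animals 10.3 to 28.1 CPM with a median of 23.3, and HFD+eRapa animals 16.0 to 37.7 CPM with a median of 24.5. All 7 HFD+veh animals were below the ND+veh median. Eif4ebp1 fell by 0.54 in HFD+veh against ND+veh (SE 0.184, edgeR adjusted p = 0.0329), a call that ended when ND+veh replicate 3, 6, 7 or 8 or HFD+veh replicate 3 was left out (adjusted p from 0.0504 to 0.0559, values from -0.55 to -0.48). It also ended under limma voom (-0.59, adjusted p = 0.0633), with the immune score (-0.53, edgeR adjusted p = 0.109) or the endothelial, stellate and cholangiocyte score (-0.53, edgeR adjusted p = 0.058) as a covariate, and without ND+veh replicate 4 and HFD+veh replicate 6 together (-0.44, edgeR adjusted p = 0.0655). With the dissociation stress score as a covariate the value was -0.23 (edgeR adjusted p = 0.484), and r of Eif4ebp1 with that score was 0.71 over 24 libraries and 0.59 after group means were removed. HFD+eRapa against HFD+veh gave 0.20 (95% interval -0.17 to 0.57, edgeR adjusted p = 0.42) and against ND+veh -0.35 (95% interval -0.70 to 0.01, edgeR adjusted p = 0.203).

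Rps6kb1, Rheb and Fkbp1a had group medians close to each other. Rps6kb1 (chromosome 11, 86498871-86544805, minus strand), the S6 kinase gene, had medians of 27.9, 25.4 and 27.8 CPM in ND+veh, HFD+veh and HFD+eRapa, and its largest fitted difference was 0.05 (HFD+eRapa against HFD+veh, 95% interval -0.11 to 0.20, edgeR adjusted p = 0.68). Rnft1, on the opposite strand, shares 155 of its exon bases. Rheb (chromosome 5, 24802823-24842624, minus strand), the activating GTPase, had medians of 44.1, 49.1 and 48.1 CPM, and HFD+veh against ND+veh gave 0.17 (95% interval -0.06 to 0.39, edgeR adjusted p = 0.254). Fkbp1a (chromosome 2, 151542483-151561692, plus strand), which encodes the rapamycin receptor, had medians of 49.0, 48.4 and 42.7 CPM, and HFD+eRapa against HFD+veh gave 0.03 (95% interval -0.30 to 0.36, edgeR adjusted p = 0.905). With the endothelial, stellate and cholangiocyte score as a covariate that Fkbp1a value became 0.50 and was called (edgeR adjusted p = 0.0409). Its processed copies Fkbp1a-ps1, Fkbp1a-ps2 and Fkbp1a-ps3 received at most 2 counts in any library.

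Counted over the 10 members, HFD+veh against ND+veh called 3, with Sesn1 higher and Eif4ebp1 and Eif4ebp2 lower. Of all genes tested in that comparison 25.9% were called, 16.0% higher and 9.86% lower, so the members were called about as often as genes at large. HFD+eRapa against HFD+veh also called 3, with Eif4ebp2 higher and Sesn1 and Ddit4 lower, where 32.0% of all genes were called, 10.9% higher and 21.1% lower. HFD+eRapa against ND+veh called Ddit4 alone, 1 of 10, against 13.5% of all genes, 6.93% higher and 6.54% lower. The CPM of the groups did not overlap for Ddit4 in the last comparison, where 3.37% of all genes had no overlap, and all members overlapped in the others, where 2.44% (HFD+veh against ND+veh) and 2.59% (HFD+eRapa against HFD+veh) had none. The median log2 fold change of the members was -0.16, -0.04 and -0.07 in these 3 comparisons, against 0.05, -0.04 and -0.03 over all genes tested. HFD+veh animals enter the first comparisons with opposite sign, so values that mirror each other there share those animals.

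Levels were compared between genes on the deposited FPKM scale, which divides by gene length. In ND+veh the group medians ran from Eif4ebp2 at 41.8 FPKM through Fkbp1a (32.3), Rheb (26.8), Eif4ebp1 (24.1), Deptor (20.0), Ddit4 (7.62), Rps6kb1 (5.31), Sesn1 (4.25) and Sesn3 (3.65) to Sesn2 at 2.91 FPKM. Some neighbours in that order were close. Sesn3 exceeded Sesn2 in 4 of 8 animals, Eif4ebp1 exceeded Deptor in 5 of 8 and Ddit4 exceeded Rps6kb1 in 5 of 8. Others stood further apart, and Deptor exceeded Ddit4 in 7 of 8. In HFD+veh the Eif4ebp2 median was 19.3 FPKM, behind Fkbp1a at 30.5 and Rheb at 28.4 FPKM, and Fkbp1a exceeded Rheb in 3 of 7 animals. In HFD+eRapa Eif4ebp2 was again highest at 35.2 FPKM, and Ddit4 was lowest of the 10 at 2.04 FPKM, though Sesn2 exceeded it in only 5 of 9 animals.

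**Figure D4:**
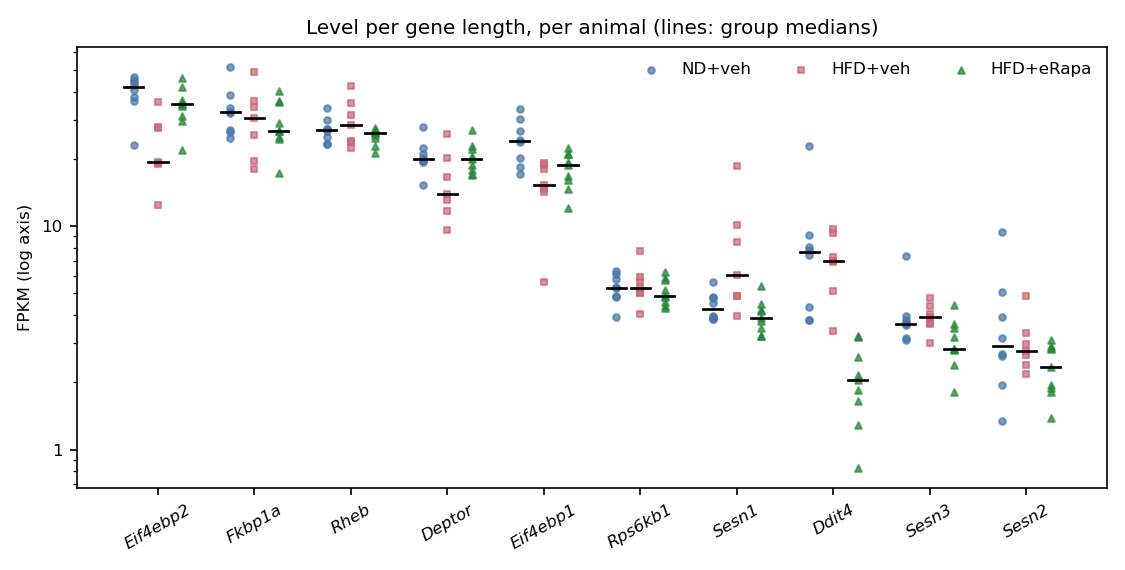
FPKM of each member per animal (vertical, log axis), ordered by the median over all animals, with group medians as black lines and groups coloured and shaped as in the plot of CPM. The levels fall into a higher set from Eif4ebp2 to Eif4ebp1 and a lower set from Rps6kb1 to Sesn2, and the Ddit4 median moves from 7.62 in ND+veh and 6.96 in HFD+veh to 2.04 FPKM in HFD+eRapa.

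Within the sestrins, Sesn1 made up 38.2% of the summed sestrin FPKM at the median in ND+veh (22.5 to 51.3%), 48.4% in HFD+veh (39.4 to 73.8%) and 41.3% in HFD+eRapa (38.4 to 50.0%). The Sesn3 share had medians of 33.1%, 29.8% and 32.4%. The FPKM ratio of Eif4ebp2 to Eif4ebp1 had medians of 1.85, 1.45 and 1.81, with ranges of 0.76 to 2.38, 1.01 to 2.34 and 1.32 to 3.14. All these ranges overlapped between groups.

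The genes whose log2 CPM ran most like each called member over the 24 libraries were taken from 7797 named genes with a mean log2 CPM of at least 3. For Sesn1 they were Fuca2, a secreted fucosidase (Pearson's r 0.94, and 0.94 after group means were removed), Hps3, a subunit of a lysosome-related organelle complex (0.94 and 0.89), and Tgfbr1, a TGF-beta receptor (0.94 and 0.89). In HFD+veh the highest value and median were 48.9 and 18.3 CPM for Sesn1 and 68.0 and 17.7 CPM for Fuca2. They were 34.2 and 13.1 CPM for Hps3 and 211 and 44.4 CPM for Tgfbr1. Removal of group means leaves such high values in place, and how far r rests on 1 animal was not tested. For Eif4ebp2 they were Scap, the escort protein of the SREBP lipid regulators (0.97 and 0.95), Wbp1l (0.95 and 0.93) and Wdtc1 (0.95 and 0.94). For Eif4ebp1 they were the splicing gene Snrpb (0.87 and 0.83), the NEDD8-conjugating enzyme gene Ube2m (0.86 and 0.82) and Mydgf (0.85 and 0.79).

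The genes most like Ddit4 were Glb1, the lysosomal beta-galactosidase gene (0.80, and 0.50 after group means were removed), Cyp39a1, an oxysterol hydroxylase gene (0.79 and 0.28), and Slc3a2, the heavy chain of amino acid exchangers (0.79 and 0.43). Their likeness lay mainly between the groups. Cyp39a1 ranged from 2.51 to 24.4 CPM in HFD+eRapa, against 30.8 to 60.1 CPM in HFD+veh and 32.8 to 86.5 CPM in ND+veh. Glb1 had medians of 13.9, 19.0 and 8.61 CPM in ND+veh, HFD+veh and HFD+eRapa.

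The rest of the pathway was read from lists of named genes. Of all genes tested, 25.9% were called in HFD+veh against ND+veh, 32.0% in HFD+eRapa against HFD+veh and 13.5% in HFD+eRapa against ND+veh. These shares stand beside the counts of every list below. Of the 4 other subunits of the complex tested, Rptor, the scaffold that recruits substrates, was below ND+veh in HFD+veh (-0.41, edgeR adjusted p = 0.0426). In HFD+eRapa against HFD+veh Mtor, the kinase itself, rose by 0.56 (edgeR adjusted p = 0.00398) and Rptor rose by 0.55 (edgeR adjusted p = 0.00651), and Mtor was also higher than in ND+veh by 0.40 (edgeR adjusted p = 0.0414). The core median was -0.29, 0.46 and 0.19 in HFD+veh against ND+veh, HFD+eRapa against HFD+veh and HFD+eRapa against ND+veh, beside the all-gene medians of 0.05, -0.04 and -0.03 that apply to every list below. In the same order the medians were -0.06, 0.06 and -0.01 for nutrient sensing, -0.22, 0.08 and -0.10 for the growth factor and energy arm, -0.10, 0.14 and -0.15 for other substrates and outputs, and -0.09, -0.18 and 0.03 for the Fkbp family.

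Of 25 nutrient-sensing genes tested, HFD+veh against ND+veh called 2 higher and 3 lower, where 25.9% of all genes were called. Lamtor5 and Lamtor3, subunits of the lysosomal anchor of mTORC1, rose by 0.54 each (edgeR adjusted p = 0.019 and 0.0214), and Itfg2, which encodes a KICSTOR subunit, fell by 0.53 (edgeR adjusted p = 0.0267). Depdc5, a GATOR1 subunit gene, fell by 0.38. HFD+eRapa against HFD+veh called 4 lower, where 32.0% of all genes were called. They were Lamtor3 (-0.65), Slc38a9, a lysosomal arginine sensor gene (-0.59), Rragd, a Rag GTPase gene (-2.15), and Castor1, a cytosolic arginine sensor gene (-0.72). Castor1 was the 1 gene of this list called in HFD+eRapa against ND+veh (-0.79), where 13.5% of all genes were called. Rragd was scarce, at means of 1.52, 2.01 and 0.45 CPM in ND+veh, HFD+veh and HFD+eRapa. So was Castor1, at 1.63, 1.56 and 0.94 CPM.

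Of 10 genes of the growth factor and energy arm tested, Akt2, the insulin-responsive kinase, fell by 0.51 and Prkaa1, the AMPK catalytic subunit gene, rose by 0.84 in HFD+veh. HFD+eRapa against HFD+veh called both in the reverse direction, at 0.51 and -0.93, with Tbc1d7, a TSC subunit gene, higher (0.32) and Ddit4l, the paralogue of Ddit4 that encodes REDD2, lower (-2.17, edgeR adjusted p = 0.0327). Ddit4l was scarce, at means of 2.78, 2.27 and 0.50 CPM in ND+veh, HFD+veh and HFD+eRapa, and was also lower in HFD+eRapa than in ND+veh (-2.47, edgeR adjusted p = 0.0288), as was Akt1 (-0.37).

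Of 14 other substrates and outputs, Larp1, a repressor of ribosomal protein mRNAs (-0.64), Eif4b, a helicase cofactor gene (-0.28), and Eif4ebp3, the remaining 4E-BP gene (-1.38), were below ND+veh in HFD+veh. Eif4b (0.41) and Eif4g1, the initiation scaffold gene (0.42), rose and Grb10, an insulin receptor adaptor gene (-0.97), fell in HFD+eRapa against HFD+veh. Between HFD+eRapa and ND+veh edgeR called 0 of the 14, with 0 at an unadjusted p under 0.05 and 0 by DESeq2 or limma voom. In that comparison edgeR called 13.5% of all genes.

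Of 10 tested relatives of Fkbp1a, Fkbp5, a glucocorticoid-induced immunophilin gene (0.77), Fkbp7 (1.02) and Fkbp15 (0.23) rose and Fkbp4 (-0.59) and Fkbp14 (-0.37) fell in HFD+veh against ND+veh. Fkbp7 was scarce, at means of 1.68, 3.42 and 2.04 CPM in ND+veh, HFD+veh and HFD+eRapa. Fkbp14 was lower again in HFD+eRapa, by -0.45 against HFD+veh and -0.83 against ND+veh (edgeR adjusted p = 9.96e-05), while Fkbp9 fell by 0.35 and Fkbp8 rose by 0.50 against HFD+veh.

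**Figure D5:**
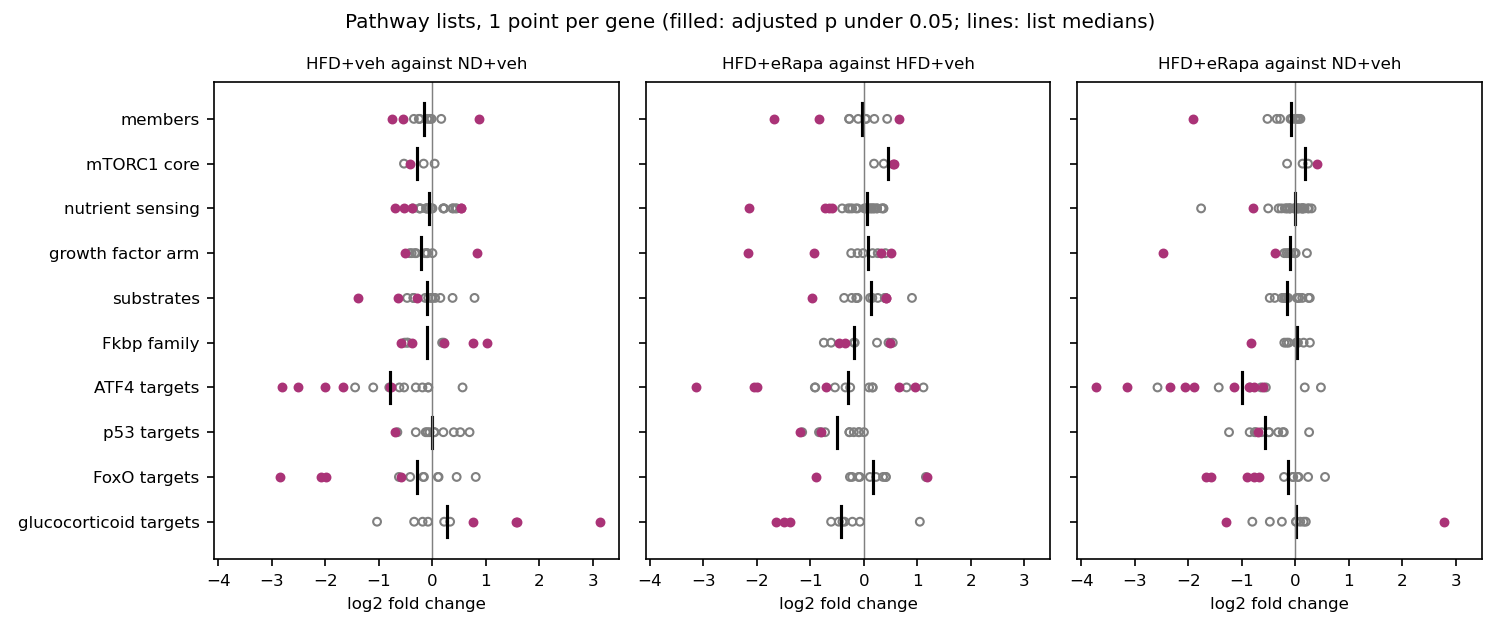
Log2 fold change (horizontal) of each tested gene of the members and 9 further lists in the 3 comparisons, 1 point per gene, filled where edgeR's adjusted p was under 0.05, with the list median as a black line. ATF4 targets have the lowest median in HFD+veh against ND+veh (-0.78) and in HFD+eRapa against ND+veh (-1.01).

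Lists of genes downstream of regulators known to act on the members were read beside them. The shares of all genes called were 25.9% (HFD+veh against ND+veh), 32.0% (HFD+eRapa against HFD+veh) and 13.5% (HFD+eRapa against ND+veh). Ddit4, Sesn2 and Eif4ebp1 are known targets of ATF4, the transcription factor of the amino acid and stress response. Of 16 ATF4 targets tested, 6 fell and none rose in HFD+veh against ND+veh, including Fgf21, a fasting hormone (-2.50, edgeR adjusted p = 0.00091), Aldh1l2, a mitochondrial folate enzyme gene (-2.82, edgeR adjusted p = 0.00101), and Atf4 itself (-0.78, edgeR adjusted p = 0.00217). Against ND+veh, HFD+eRapa had 9 of 16 lower, with Aldh1l2 (-3.73), Slc3a2 (-0.78) and Fgf21 (-2.35) at the lowest adjusted p. HFD+eRapa against HFD+veh was divided, with Slc3a2 (-0.71), Nupr1 (-2.05), Psat1 (-2.00) and Slc7a11 (-3.14) lower and Cebpb (0.97) and Shmt2 (0.66) higher. Nupr1, Psat1, Slc7a11 and Aldh1l2 had group means of at most 3.67 CPM. With the dissociation stress score as a covariate 2 ATF4 targets were called lower in HFD+veh against ND+veh and 5 in HFD+eRapa against ND+veh. With the immune score 9 of the 16 were called lower in HFD+veh and none between HFD+eRapa and HFD+veh, where edgeR had a lowest adjusted p of 0.0665 and 4 genes at an unadjusted p under 0.05.

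The ATF4 medians were -0.78, -0.30 and -1.01, those of the FoxO targets -0.29, 0.17 and -0.13, of the p53 targets -0.01, -0.50 and -0.56, and of the glucocorticoid targets 0.28, -0.43 and 0.01. Of 12 FoxO targets tested, 4 fell in HFD+veh, namely Irs2, an insulin receptor substrate gene (-2.08), Pdk4, a brake on glucose oxidation (-1.99), Igfbp1, an insulin-repressed secreted protein gene (-2.84), and Cited2 (-0.58). The same 4 genes and Ppargc1a were lower in HFD+eRapa than in ND+veh, and Irs2 was higher (1.18) and Ppargc1a lower (-0.89) in HFD+eRapa against HFD+veh. Of 12 p53 targets Bbc3 fell in HFD+veh (-0.70) and in HFD+eRapa against ND+veh (-0.69), while Plk2 (-1.19) and Btg2 (-0.80) fell in HFD+eRapa against HFD+veh. Of 10 glucocorticoid targets, Lcn2 (3.15), Mt1 (1.58), Mt2 (1.57) and Fkbp5 rose in HFD+veh, and Sgk1 (-1.63), Mt1 (-1.49) and Mt2 (-1.37) fell in HFD+eRapa against HFD+veh. Against ND+veh, HFD+eRapa had Lcn2 higher (2.79) and Sgk1 lower (-1.30). Mt2 was scarce, at means of 1.78, 5.30 and 2.04 CPM in ND+veh, HFD+veh and HFD+eRapa.

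Calls changed with the marker scores in these lists and over all genes. Over the 112 list genes tested outside the members and markers, edgeR called 30, 29 and 22 in HFD+veh against ND+veh, HFD+eRapa against HFD+veh and HFD+eRapa against ND+veh. The shares of all genes called were 25.9%, 32.0% and 13.5% in the same order. With the immune score as a covariate the counts were 16, 5 and 29, where 8.55%, 6.8% and 19.5% of all genes were called. With the endothelial, stellate and cholangiocyte score they were 19, 6 and 26, beside 15.6%, 5.47% and 21.5% of all genes. With the dissociation stress score they were 6, 27 and 7, beside 5.28%, 31.9% and 8.96% of all genes. Of the dissociation stress genes themselves, Hsph1, Dnajb1 and Hspa1b, all heat shock genes, were below ND+veh in HFD+veh and above HFD+veh in HFD+eRapa, where Atf3 was lower, and Atf3 and Ier2 were lower in HFD+eRapa than in ND+veh.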

How the data were processed

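RNA-seq of isolated hepatocytes gave 1 library per animal, and replicates were separate animals. According to the study's methods and processing notes, reads were aligned to mm10 by STAR in 2-pass mode and handled with SAMtools 1.1.0, and genes of Gencode M23 were counted with HTSeq 0.11.2. The authors deposited those raw counts per gene, and a table of FPKM values that the authors made with Cufflinks. Use of strand in counting is not stated. Coordinates and exons were taken from Gencode M21 on the same assembly.

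Counts were filtered with filterByExpr, scaled by TMM and fitted over all 24 libraries with edgeR 4.0.16 (R 4.3.3; robust quasi-likelihood test, prior count 2 for log2 CPM), with Benjamini-Hochberg adjustment over 13847 genes. Scripts were tested on simulated data. Library depth was compared by an exact permutation test. FPKM was used for levels between genes and, as log2(FPKM + 1), in limma 3.58.1 as an alternative. Other alternatives were DESeq2 1.42.0, voom, other filters, a fit of each pair of groups alone, marker scores as covariates, a replicate block and leaving out each animal. Promoter sequences were RefSeq's on GRCm38.p6.

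The members and gene lists were chosen with earlier results of these data known. All 10 members were named, with list genes that passed the test and, for each called member, the 3 genes of highest Pearson's r. Of these, 1 called gene of the nutrient-sensing list is counted but not reported by name here.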

Additional observations from a re-analysis of the deposited data

Results flagged for a closer look

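Of 33 sets of values examined (each member's log2 CPM and the total counts, in each group), 7 had an animal standing apart from the others by a gap that chance gives in about 1 of 20 sets, or 1.65 of 33. In ND+veh, Sesn3 stood at 5.82 log2 CPM in replicate 4 and Ddit4 at 5.292 in replicate 6, each above the other 7 animals. In HFD+veh, Sesn2 stood at 3.965 log2 CPM in replicate 4, above the others, while Ddit4 at 2.486 in replicate 2 and Eif4ebp1 at 3.382 in replicate 6 lay below them. HFD+veh replicate 3 had the fewest counts of its group, 19.8 M. In HFD+eRapa, Sesn1 stood at 4.234 log2 CPM in replicate 2.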

How the results depend on the processing

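The fits with marker scores set the main limit, since scores and groups move together. The cause of each change below was not tested. Members called in HFD+veh against ND+veh went from 3 to 0 with the immune or the dissociation score as a covariate (edgeR, 4 and 2 at an unadjusted p under 0.05), where the share of all genes called went from 25.9% to 8.55% and 5.28%, and in HFD+eRapa against HFD+veh from 3 to 1 with the immune score (Ddit4) or with the endothelial, stellate and cholangiocyte score (Fkbp1a), where that share went from 32.0% to 6.8% and 5.47%. Leaving out 1 animal gave 2 to 4, 3 to 4 and 1 to 1 members called in HFD+veh against ND+veh, HFD+eRapa against HFD+veh and HFD+eRapa against ND+veh, with 15.1 to 32%, 23.5 to 36.1% and 10.6 to 16% of all genes called. The replicate block gave 3, 3 and 1, beside 17.8%, 18.3% and 11.4% of all genes. Same-numbered animals deviated together by a mean r of 0.288, -0.216 and -0.132. In HFD+veh against ND+veh 3 of 7 matched their own number best, and 0 did in each other comparison. The numbers thus gave no pairing common to the 3 comparisons. Signs turned only for values that were not called. With the dissociation score, HFD+veh against ND+veh gave 0.01035 for Sesn2, 0.06618 for Ddit4 and 0.1066 for Fkbp1a, and HFD+eRapa against ND+veh gave -0.2667 for Sesn1, -0.01331 for Rps6kb1, -0.03284 for Rheb and 0.1132 for Fkbp1a. With the immune score, HFD+eRapa against HFD+veh gave 0.07788 for Sesn2 and 0.06198 for Rheb. With the endothelial, stellate and cholangiocyte score it gave 0.2302 for Sesn2 and 0.06373 for Rheb, and HFD+eRapa against ND+veh gave -0.09412 for Deptor and 0.1707 for Fkbp1a. With a minimum of 10 counts the values were 0.01793 for Sesn3 (HFD+veh against ND+veh), -0.005705 for Fkbp1a (HFD+eRapa against HFD+veh) and -1.685e-05 for Rps6kb1 (HFD+eRapa against ND+veh). Sesn3 in HFD+veh against ND+veh was 0.006453 under voom, 0.0001128 as log2(FPKM + 0.1) and 0.08677 without ND+veh replicate 4 and HFD+veh replicate 6, where Rheb in HFD+eRapa against HFD+veh was 0.03315, an alternative chosen after seeing the data. As log2(FPKM + 1), with and without a filter, and as log2(FPKM + 0.1), Rps6kb1 was 0.04548 and 0.05183 in HFD+veh against ND+veh. On these scales HFD+eRapa against HFD+veh gave -0.08732 and -0.1003 for Rps6kb1 and -0.02964 and -0.02958 for Fkbp1a. HFD+eRapa against ND+veh gave -0.1229 and -0.1499 for Sesn1, -0.0182 and -0.01889 for Deptor, -0.04184 and -0.04851 for Rps6kb1, and -0.08277 and -0.08547 for Rheb, where log2(FPKM + 0.1) moved the median of all genes to -0.11.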
